A study of Mus musculus with 10 samples.

Results

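Metallothioneins and the genes that move zinc into and out of cells were followed as 8 genes, *Mt1*, *Mt2*, *Mt3*, *Mtf1*, *Slc30a1*, *Slc30a3*, *Slc30a10* and *Slc39a14*, listed by symbol. All 8 were found among the 25232 genes of the table, and all 8 were among the 16522 genes with an adjusted p-value, so that none was lost to a filter on low counts. RNA was sequenced from the spinal cord of 5 SOD1 G93A and 5 wild type (WT) female mice at 90 days of age, on a C57BL/6 background. The SOD1 G93A mouse carries many copies of a human *SOD1* transgene with a mutation of familial amyotrophic lateral sclerosis, and the WT mice were their littermates without it. The tissue is the spinal cord in the labels and its lumbar part in the methods. Since the transgene is present in many copies, the model combines the mutation with an excess of a copper and zinc enzyme.

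Zinc is a structural and catalytic part of many proteins, and its free level inside a cell is kept low. Metallothioneins are small cysteine-rich proteins that bind zinc and copper and release zinc again. The transcription factor MTF1 senses a rise in zinc and switches on metallothionein genes and the zinc exporter gene *Slc30a1* through short metal response elements in their promoters. Transporters of the Slc30 (ZnT) family carry zinc out of the cytosol, and those of the Slc39 (ZIP) family carry it in. In the spinal cord, *Mt1* and *Mt2* are known as inducible genes of astrocytes, while *Mt3* is the form typical of the central nervous system. SOD1 itself is an enzyme that holds copper and zinc.

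The 4 metallothionein genes of the mouse lie in a row on chromosome 8 of GRCm38, from *Mt4* to *Mt1*, on the same strand and within 43.1 kb (94137197 to 94180327). *Mt3* spans 94152607 to 94154146, *Mt2* 94172664 to 94173568 and *Mt1* 94179082 to 94180327 in GENCODE M21. The 250 bases before the RefSeq start of *Mt1*, *Mt2*, *Mt3* and *Slc30a1* are shown because MTF1 is known to act on this family through promoter elements. The number of matches depends on the start and the window chosen. Capitals mark each match to the core of the metal response element, searched as TGCACNC and TGCGCNC on both strands, with overlapping matches counted separately. The sequences are from RefSeq on GRCm38.p6 and run 5′ to 3′ on the strand of the gene. They lie at chr8:94178839-94179088 for *Mt1*, chr8:94172368-94172617 for *Mt2*, chr8:94152357-94152606 for *Mt3* and chr1:191906531-191906780 for *Slc30a1*, all on the plus strand.
Mt1: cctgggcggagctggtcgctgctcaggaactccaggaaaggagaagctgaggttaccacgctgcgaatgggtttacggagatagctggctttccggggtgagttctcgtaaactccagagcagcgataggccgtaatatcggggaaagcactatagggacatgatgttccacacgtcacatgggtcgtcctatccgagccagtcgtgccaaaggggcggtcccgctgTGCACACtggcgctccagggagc
Mt2: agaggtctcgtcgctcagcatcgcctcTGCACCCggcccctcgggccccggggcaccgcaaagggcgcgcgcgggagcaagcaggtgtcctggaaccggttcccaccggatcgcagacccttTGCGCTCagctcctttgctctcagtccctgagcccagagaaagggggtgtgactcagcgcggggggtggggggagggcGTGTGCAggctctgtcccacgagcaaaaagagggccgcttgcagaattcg
Mt3: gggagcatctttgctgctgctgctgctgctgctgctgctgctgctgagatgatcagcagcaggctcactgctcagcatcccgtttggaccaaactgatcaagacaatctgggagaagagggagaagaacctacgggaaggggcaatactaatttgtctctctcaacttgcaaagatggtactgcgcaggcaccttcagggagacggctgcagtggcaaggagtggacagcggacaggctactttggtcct
Slc30a1: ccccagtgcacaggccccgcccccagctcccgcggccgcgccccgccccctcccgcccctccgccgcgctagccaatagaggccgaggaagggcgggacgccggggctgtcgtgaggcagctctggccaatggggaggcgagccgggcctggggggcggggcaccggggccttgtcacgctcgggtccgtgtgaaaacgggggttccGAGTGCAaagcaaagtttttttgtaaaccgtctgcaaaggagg

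The *Mt2* window held 3 matches, *Mt1* and *Slc30a1* held 1 each, and *Mt3* held 0. Of the other members, *Slc30a10* held 3 matches, of which a pair overlap, the upstream one of the 2 RefSeq starts of *Slc30a3* held 1 and *Mtf1* held 0. Of 32851 promoters in the RefSeq set, 21.4% held at least 1 match in the same length and 1.26% held at least 3. With the 50 bases after the start included, *Mt1* had 3 matches, *Mt2* 4, *Slc30a1* 2 and *Mt3* 1, where 25.7% of all promoters had at least 1 and 1.97% at least 3. The count of *Mt1* thus moved from 1 to 3 and that of *Mt3* from 0 to 1. A difference in matches between these genes therefore depends on the start and window used. *Slc39a14* had no entry in the promoter set. A match to these letters is a description of the sequence, and binding of MTF1 was not measured.

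At the RNA level, 1 of the 8 genes passed the threshold of 0.05 on the adjusted p-value. This was the zinc importer gene *Slc39a14*, which rose, and 0 of the 8 were called lower. Over all tested genes 3.86% were called higher and 3.24% lower. The same 1 member had an unadjusted p-value under 0.05, against 18.3% of all tested genes. The 8 log2 fold changes (SOD1 G93A against WT, positive where higher in SOD1 G93A) ran from −0.09 to 0.31 with a median of 0.03, where all tested genes had a median of −0.00138. Each fold change, its standard error (SE), the base mean and the p-value are the authors' estimates from DESeq2 over the 10 libraries, and the adjusted p-value was recomputed from these p-values over all 16522 genes. The base mean is the mean of the normalized counts over all libraries, and values of single mice were not analysed here, so that neither the level in each mouse nor the overlap of the groups can be given.

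**Figure D1:**
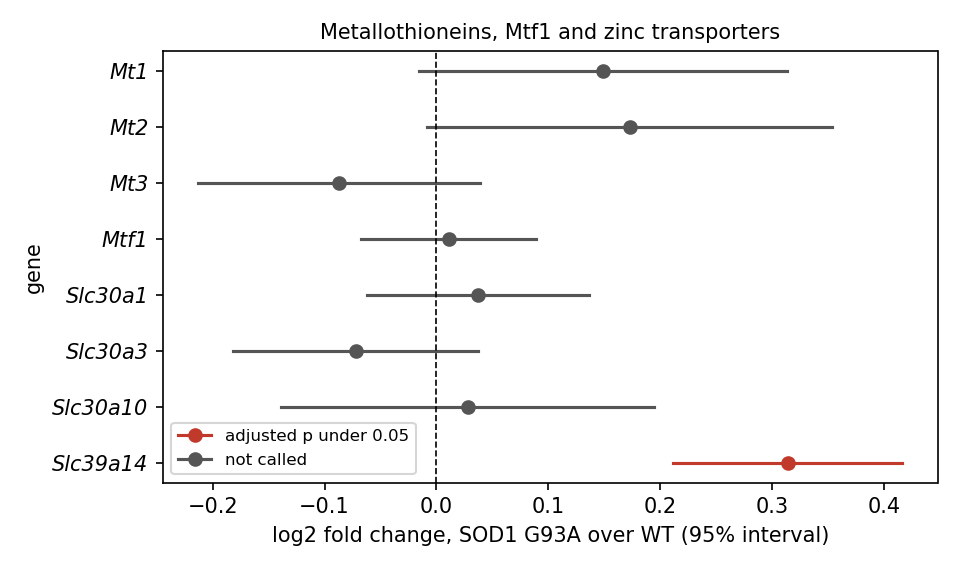
Log2 fold change between SOD1 G93A and WT (x axis) for each of the 8 genes (y axis), with points for the estimate and lines for the 95% interval (1.96 SE to each side). *Slc39a14* (red, called) has an interval from 0.21 to 0.42, and the intervals of the other 7 genes (grey) include 0.

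Among the metallothioneins, *Mt1* and *Mt2* had positive fold changes that did not pass the test and *Mt3* a negative one. *Mt2* had a base mean of 4308 and a log2 fold change of 0.17 (SE 0.092), a difference of 12.7% with a 95% interval from −0.582% to 27.8%. Its unadjusted p-value was 0.0617 and its adjusted p-value 0.309. *Mt1*, with the highest base mean of the 8 genes (5301), had a log2 fold change of 0.15 (SE 0.084), an interval from −0.02 to 0.31 and an adjusted p-value of 0.348. The deposited estimates of the 2 neighbours were thus nearly the same, within 1 SE of each other. *Mt3*, the form known from neurons and astrocytes of the brain, had a base mean of 3926, a log2 fold change of −0.09 (SE 0.064) and an adjusted p-value of 0.527. The interval of *Mt3* (−0.21 to 0.04) overlapped those of *Mt1* and *Mt2*, and the difference between the genes was not tested, since their errors are not independent. *Mt4*, the form of stratified epithelium, was listed with a base mean of 0 and had no fold change. Exons of an antisense gene on the opposite strand, *Gm45774*, cover 73.5% of the exon length of *Mt2* in GENCODE M21. *Gm45774* had no row in the table, and the strand setting of the counting is not given in the sources used here, so reads from *Mt2* and its antisense partner cannot be told apart.

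The error of *Mt1* and *Mt2* was large for genes of their level. Counting noise alone, for 5 against 5 libraries at their base means, gives an SE of 0.0125 for *Mt1* and 0.0139 for *Mt2*. The deposited SE of *Mt2*, 0.0923, was at the ceiling of the whole table, whose largest SE was 0.0924. Genes with a base mean over 1000 had a median SE of 0.0451. At the SE of *Mt2*, a log2 fold change of 0.27 would have been needed for a call, and 0.24 at that of *Mt1*, given the smallest Wald statistic called (2.92, the fold change divided by its SE). The same size was 0.12 for *Mtf1*, 0.15 for *Slc30a1* and *Slc39a14*, 0.16 for *Slc30a3*, 0.19 for *Mt3* and 0.25 for *Slc30a10*.

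The standard errors had an unusual form over the whole table, which bears on how the fold changes are read. They were smallest at the lowest levels, with a median of 0.0117 for base means up to 1, rose to a median of 0.0882 between 10 and 100 and fell again to 0.0451 above 1000. Counting noise falls steadily with the level, whereas fold changes moderated towards 0 by a normal prior give such an arch with a ceiling, near which 1050 genes lay within 1%. The methods do not name a prior. If such a prior was used, the ceiling gives it an SD of 0.185, and the fold change before moderation can be computed with 2 solutions per gene. Both solutions are possible only where the smaller SE is not below that of counting noise. It is below for the Schwann cell marker *Prx* (0.0301 against 0.0415). For the 4 genes given next both SEs lie above counting noise, which does not decide between them. The smaller solution is given first. It was 0.34 (SE 0.181) for *Mt2*, 0.21 (SE 0.118) for *Mt1*, −0.10 (SE 0.0747) for *Mt3* and 0.34 (SE 0.0573) for *Slc39a14* on the log2 scale. The larger solution was 0.35 (SE 0.189) for *Mt2*, 0.51 (SE 0.288) for *Mt1*, −0.62 (SE 0.457) for *Mt3* and 3.58 (SE 0.596) for *Slc39a14*, so the 2 solutions were close only for *Mt2* among these 4 genes. The larger solution of *Slc39a14*, 3.58, lies far outside a prior with an SD of 0.185, which does not decide between the solutions. The deposited fold changes of all tested genes themselves ran from −1.28 to 1.58. The Wald statistic, and with it the p-value, is the same on both scales. With the prior and the smaller solution assumed for every gene, the SE before moderation was 13.0 times the counting limit for *Mt2*, 9.45 times for *Mt1* and 5.13 times for *Mt3*, against 1.59 times for *Mtf1* and 2.16 times for *Slc39a14*. *Mt2* lay at percentile 99.96 of this SE among the 5271 tested genes with a base mean over 1000, and *Mt1* at percentile 98.7, while *Slc39a14* lay at percentile 76.5 and *Mtf1* at percentile 25.1.

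**Figure D2:**
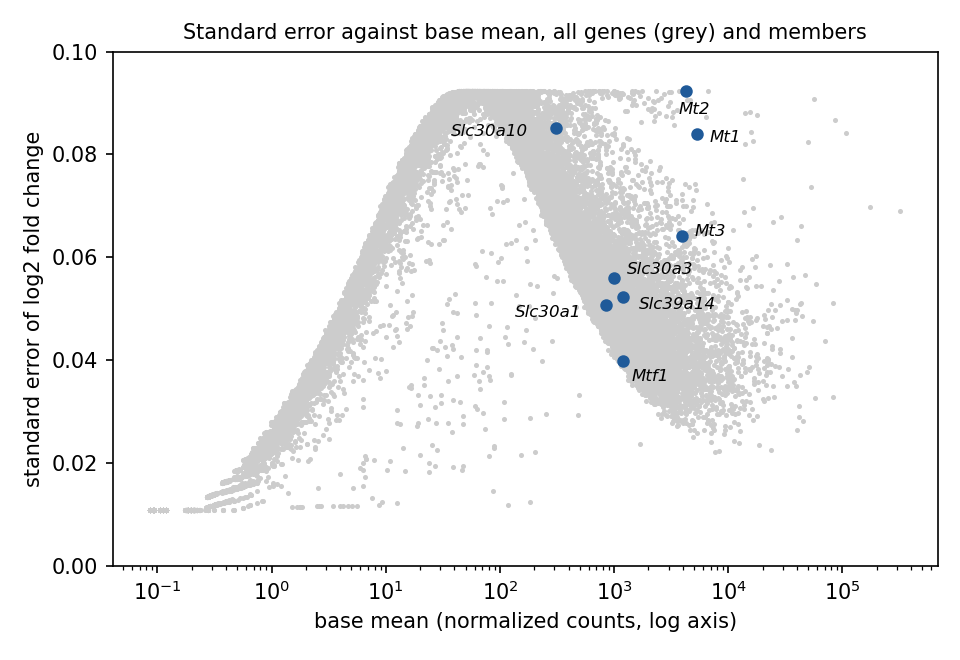
Standard error of the log2 fold change (y axis) against the base mean (x axis, log scale) for every gene with an SE (grey) and for the 8 genes (blue). *Mt2* sits at the ceiling of 0.0924 at a base mean where the median gene lies near 0.0451, and *Mtf1* lies at 0.0399.

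*Mtf1*, the zinc sensor, was among the members with the least difference. Its gene spans 124802104 to 124849800 of chromosome 4 (GRCm38), and its base mean was 1197. Its log2 fold change was 0.01 (SE 0.040) with a 95% interval from −0.07 to 0.09, which corresponds to −4.54% to 6.39%. That interval was the narrowest of the 8 on the deposited scale. If a prior was used, the SE before moderation was 0.0419 by the smaller solution and 0.814 by the larger. The adjusted p-value was 0.931. Genes described as responding to metals through MTF1 were followed as a list of 9, *Mt1*, *Mt2*, *Slc30a1*, *Slc30a10*, *Slc39a10*, *Gclc*, *Selenow*, *Ndrg1* and *Csrp1*. All 9 were tested and 0 were called in either direction by the deposited DESeq2 fit, with 0 at an unadjusted p-value under 0.05. Over all tested genes, 3.86% were called higher, 3.24% lower, and 18.3% had an unadjusted p-value under 0.05. No other tool was run, since counts of single libraries were not analysed here. The median log2 fold change of the 9 genes was 0.03, with 5 positive and 4 negative. The list ran from −0.08 (SE 0.042) for *Selenow*, which encodes a small selenoprotein, to 0.17 for *Mt2*.

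Of the 3 zinc exporters among the members, 0 were called. *Slc30a1* encodes the exporter of the plasma membrane and lies on chromosome 1 from 191906767 to 191913247. Its base mean was 857, and its log2 fold change 0.04 (SE 0.051) had a 95% interval from −0.06 to 0.14 and an adjusted p-value of 0.787. *Slc30a3*, on chromosome 5 from 31086106 to 31108237, encodes the transporter that fills synaptic vesicles of some glutamatergic neurons with zinc. It had a base mean of 1004 and a log2 fold change of −0.07 (SE 0.056), with an interval from −0.18 to 0.04 and an adjusted p-value of 0.556. *Slc30a10*, on chromosome 1 from 185454848 to 185468762, is known mainly as an exporter of manganese. It was the member with the lowest base mean (307), and its log2 fold change of 0.03 (SE 0.085) had an interval from −0.14 to 0.19 and an adjusted p-value of 0.917. The deposited intervals of the 3 exporters lay within 0.2 of 0 on the log2 scale. If a prior was used, the smaller solution was 0.04 (SE 0.0552) for *Slc30a1*, −0.08 (SE 0.0624) for *Slc30a3* and 0.04 (SE 0.123) for *Slc30a10*. The larger was 0.45 (SE 0.618), −0.71 (SE 0.547) and 0.09 (SE 0.278), so the bound of 0.2 belongs to the deposited scale. Exons of genes on the opposite strand cover 8.92% of the exon length of *Slc30a1*, 9.13% of that of *Slc30a10* and 8.09% of that of *Mtf1*, and these 3 antisense genes had base means between 63.7 and 454 and were not called. The whole Slc30 family has 10 genes, of which 9 were tested and 0 were called, with 0 at an unadjusted p-value under 0.05. The shares of all tested genes were 3.86% called higher, 3.24% called lower and 18.3% at an unadjusted p-value under 0.05. *Slc30a8*, the exporter of insulin granules, was not tested at its base mean of 5.02. The family ran from −0.07 for *Slc30a3* to 0.06 (SE 0.073) for *Slc30a6*, an exporter of the secretory pathway, with a median of 0.01.

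The importer gene *Slc39a14* rose by 24.3% in SOD1 G93A mice on the deposited scale, with a 95% interval from 15.8% to 33.4%. It encodes ZIP14, which carries zinc, manganese and iron into cells and is known as a gene induced by inflammatory cytokines in the liver, and its gene spans 70303469 to 70351425 on the minus strand of chromosome 14 (GRCm38). Its base mean was 1187, its log2 fold change 0.31 (SE 0.052) and its adjusted p-value 1.98e-07. If a prior was used, *Slc39a14* had 0.34 (SE 0.0573) before moderation by the smaller solution and 3.58 (SE 0.596) by the larger. By the Wald statistic of 6.01 it was number 132 from the top of the 16522 tested genes, and the size of its fold change lay at percentile 97.8. In bulk tissue, a change in the number of cells that express a gene and a change of its RNA per cell cannot be told apart. Of the 6 microglial markers 5 were called higher, *Aif1*, *Csf1r*, *Cx3cr1*, *Tmem119* and *Itgam*, with a median log2 fold change of 0.48 over the list. Of the 7 astrocyte markers 4 were called higher, *Aqp4*, *Gja1*, *Slc1a3* and *Gfap*, with a median of 0.17 over the list. Of the 6 motor neuron markers 4 were called lower, *Chat*, *Slc18a3*, *Mnx1* and *Prph*, with a median of −0.34. Among all tested genes, 3.86% were called higher and 3.24% lower. The part of any cell type in the rise of *Slc39a14* was not tested.

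**Figure D3:**
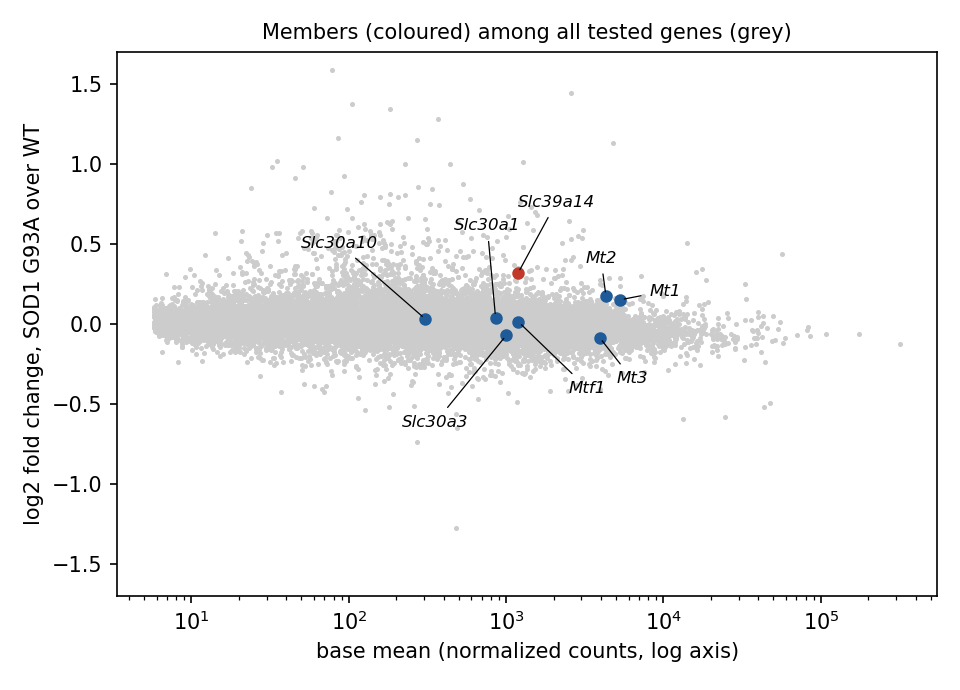
Log2 fold change between SOD1 G93A and WT (y axis) against the base mean (x axis, log scale) for the 16522 tested genes (grey), with the 8 genes in colour (red, called; blue, not called). *Slc39a14* at 0.31 lies above the main cloud, *Mt1* and *Mt2* at its upper edge and the other members within it.

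Over the whole Slc39 family, 2 of the 13 tested genes were called higher and 0 lower, against 3.86% and 3.24% of all tested genes. Beside *Slc39a14* this was *Slc39a1*, which encodes ZIP1, a zinc importer present in most cells. *Slc39a1* had a base mean of 861, a log2 fold change of 0.30 (SE 0.052) and an adjusted p-value of 4.22e-07, so that its estimate differed from that of *Slc39a14* by less than 1 SE. The median of the 13 genes was 0.01, with 7 positive and 6 negative, and the 11 genes that were not called lay between −0.06 and 0.10. The lowest was *Slc39a7*, a zinc channel of the endoplasmic reticulum, with −0.06 (SE 0.034) and an adjusted p-value of 0.364. *Slc39a4*, the importer of the gut, was not tested at its base mean of 5.24.

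**Figure D4:**
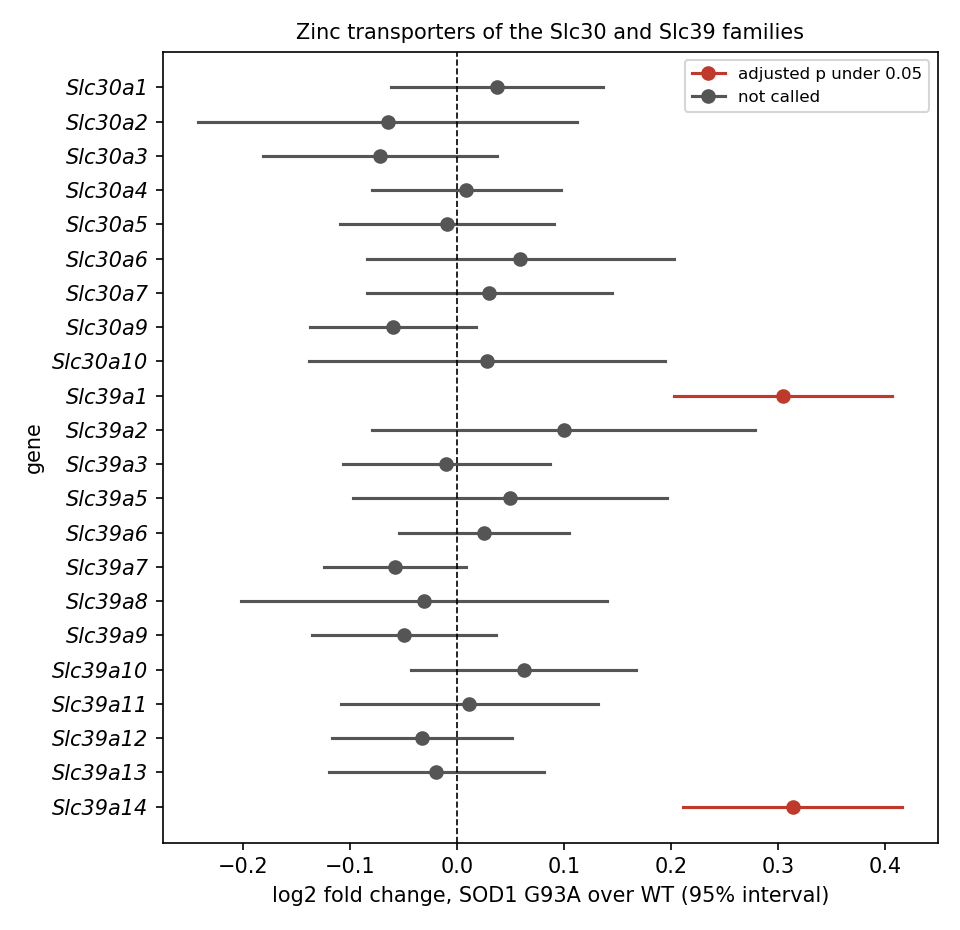
Log2 fold change between SOD1 G93A and WT with its 95% interval (x axis) for the 22 tested genes of the Slc30 exporter and Slc39 importer families (y axis). *Slc39a1* and *Slc39a14* (red) are called at 0.30 and 0.31, and the intervals of the other 20 (grey) include 0.

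Copper handling was followed as a list of 11 genes, since metallothioneins and SOD1 bind both metals, and 1 of the 10 tested genes was called higher and 0 lower, against 3.86% and 3.24% of all tested genes. *Atp7b*, the copper pump of the secretory pathway, had a base mean of 178 and a log2 fold change of 0.24 (SE 0.078), with an adjusted p-value of 0.0282. *Atp7b* was not called at an adjusted p-value under 0.01 or with the Holm adjustment. *Sco1*, which helps to deliver copper to cytochrome oxidase, was lowest at −0.10 (SE 0.073) with an adjusted p-value of 0.546. Mouse *Sod1* had a log2 fold change of −0.05 (SE 0.045) and an adjusted p-value of 0.639, and the human transgene has no row. The median of the 10 genes was −0.04. *Sco2* was not tested at its base mean of 0.474.

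Levels were compared between genes only per length, as the base mean divided by the length of all exons of the gene in GENCODE M21. *Mt2* was highest with 7327 normalized counts per kilobase, followed by *Mt1* with 4254 and *Mt3* with 3683. *Slc30a3* had 354, *Slc30a1* 163, *Mtf1* 134, *Slc39a14* 113 and *Slc30a10* 52.6 normalized counts per kilobase. The 3 metallothioneins were thus all far above the regulator and the transporters on this scale. The order depends on the length used. With the longest transcript *Mt3* had 7325 normalized counts per kilobase and *Mt1* 4886, and *Slc39a14* had 232, while *Mt2* stayed highest. The exons of *Mt1* together cover its whole gene (1246 bases, longest transcript 1085), against 588 and 511 bases for *Mt2*. Undivided, the base mean was higher for *Mt1* (5301) than for *Mt2* (4308), so the place of *Mt2* above *Mt1* rests on these lengths. The spread of these levels over mice was not analysed here, so neighbours in this order cannot be said to differ.

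**Figure D5:**
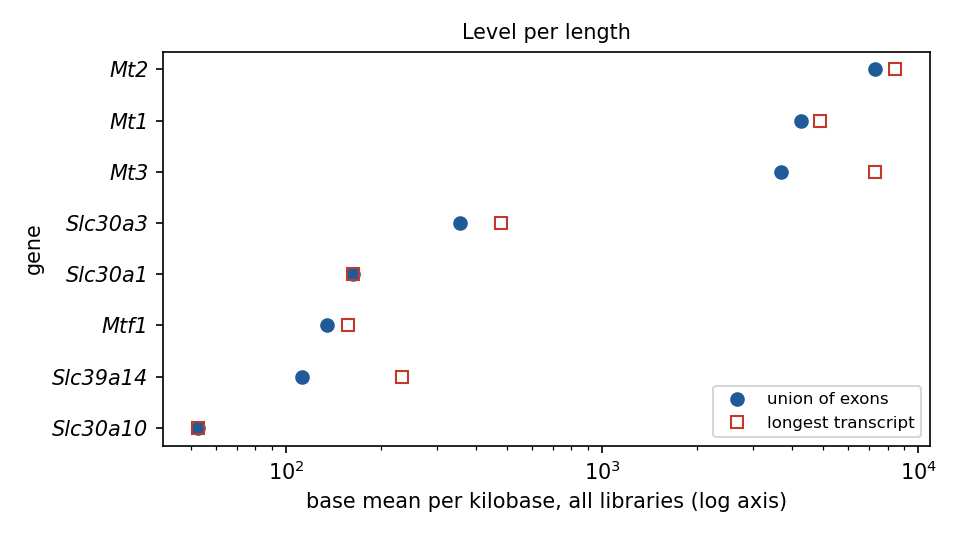
Base mean per kilobase over all 10 libraries (x axis, log scale) for each of the 8 genes (y axis), by the union of exons (filled circles) and by the longest transcript (open squares). The 3 metallothioneins lie between 3683 and 8431, and the other 5 genes between 52.6 and 480.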

How the data were processed

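Stranded mRNA libraries of 5 WT and 5 SOD1 G93A females were sequenced with paired-end reads. According to the methods and the submitters' processing notes, the authors filtered reads with Fastp, aligned them to mm10 with HISAT2 2.1.0, counted reads that mapped uniquely with featureCounts 2.0.2 and compared the groups with DESeq2. The annotation, the strand setting and the DESeq2 version are not given in the sources used here. The authors deposited 1 table of this comparison, and values of single libraries were not analysed here, so depth per library is unknown. The base mean (a mean signal of counts divided by size factors) and the log2 fold change with its standard error were used as deposited. The Wald statistic, a score, and the p-value were used as deposited by the authors. The results are therefore the authors' own fit, read for these genes.

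P-values were adjusted again by Benjamini-Hochberg over the 16522 genes with a deposited adjusted p-value, which differed by at most 1.93e-06, and called under 0.05. Exons are from GENCODE M21 (GRCm38, which mm10 denotes) and promoters from RefSeq GRCm38.p6, with an entry for 7 of the 8 members. Members and lists were chosen with earlier results of these data known, and lists have no set test. Named genes were the members, the called genes and extremes of the zinc, metal and copper lists, and called markers. *Slc30a8*, *Slc39a4*, *Sco2*, *Prx* and *Gm45774* were named after their values were seen. Alternatives were thresholds of 0.01 and 0.1, other sets of genes to adjust over, Holm, centring and transcript length. Undoing a prior was added after the data were seen. The computations were tested on simulated data. Tools were Python 3.11.15, scipy 1.17.1, numpy 2.4.6, pandas 2.3.3, matplotlib 3.10.9 and statsmodels 0.14.6.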

Additional observations from a re-analysis of the deposited data

How the results depend on the processing

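The call of *Slc39a14* held under every alternative run, with adjusted p-values from 1.70e-07 (centred on the median of all genes) to 3.13e-05 (Holm), and the number of members called stayed at 1 higher and 0 lower. The 7 other members were not called under any of them. In the copper list, the count of genes called higher was 0 at an adjusted p-value under 0.01 and 0 with the Holm adjustment, against 1. With the longest transcript as length, the rank of the level per kilobase moved to 3 for *Mt1*, 2 for *Mt3*, 7 for *Mtf1*, 6 for *Slc30a1* and 5 for *Slc39a14*. Over all genes, 331 were called with the Holm adjustment, 715 under 0.01 and 1173 as reported. No paired analysis was possible because the table holds no values of single libraries, and for the same reason no replicate could be left out. The standard error alone limits each gene.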

Other observations

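Markers of other cell types were followed for the make-up of the tissue. Of the 4 pan-neuronal markers, *Rbfox3* (log2 fold change −0.15, SE 0.044) and *Tubb3* (−0.20, SE 0.058) were called lower and *Syt1* (0.24, SE 0.073) was called higher. None of the 5 oligodendrocyte, 4 endothelial, 3 ependymal and 3 Schwann cell markers was called by the deposited DESeq2 fit, with 2, 1, 1 and 0 of them at an unadjusted p-value under 0.05, and the medians of these lists were −0.13, −0.05, −0.06 and −0.01. The 3 glutamatergic vesicle transporter genes, partners of *Slc30a3* in synaptic vesicles, were not called either, with a median of 0.10 and 2 of 3 at an unadjusted p-value under 0.05. Beside these lists, 3.86% of all tested genes were called higher, 3.24% were called lower and 18.3% had an unadjusted p-value under 0.05.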
